A study of Homo sapiens with 10 samples.

Results

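Zinc finger (ZNF) genes off chromosome 19 were examined for peak summits of the chromatin protein WDR5 and of the microprotein EMBOW. The genes were all protein-coding RefSeq genes (assembly GRCh38.p14) on chromosomes 1 to 18 and 20 to 22 whose symbol is ZNF followed by a number, which gave 227 of 20037 protein-coding genes. A gene with another such gene within 100 kb, measured between gene bodies, was called clustered (105 genes in 32 clusters), and a gene with none was called solitary (122 genes). The data are chromatin immunoprecipitation with sequencing (ChIP-seq) from nuclei of HEK293T, a line from human embryonic kidney with the large T antigen of SV40, digested with micrococcal nuclease. One list came from an anti-WDR5 precipitation of EMBOW knockout (KO) cells, one from an anti-FLAG precipitation of cells that stably express EMBOW-FH (called EMBOW-F here), and one from an anti-WDR5 precipitation of wild-type (WT) cells. The labels do not say whether the knockout or the stable line is 1 clone, and each list comes from 1 library, which leaves every comparison without replicate error and without a p-value. The lists hold no expression values, so the cell type was not checked against markers.

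The KO list held 21055 summits, the EMBOW-F list 93143 and the WT list 17660. Each summit is a single base with the authors' own −log10 q, and the lists hold no read counts, so depth is unknown. A gene with a summit within 1 kb of either end is called marked. Ranges in parentheses after shares are exact (Clopper-Pearson) 95% intervals, which cover counting error only. Tandem duplicates can share promoter sequence and neighbouring genes can share a summit, so genes are not independent units. How the authors treated reads that fit several near-identical copies is not stated, which leaves summits at recent duplicates uncertain.

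ZNF genes encode proteins with arrays of C2H2 zinc fingers that read DNA, and many carry a KRAB domain that recruits the corepressor TRIM28 and, through it, the histone methyltransferase SETDB1 and heterochromatin proteins. They form one of the largest families of human transcription factors, grew by tandem duplication, and are known for silencing transposable elements. WDR5 is a core subunit of COMPASS-type complexes, which methylate H3K4, and H3K4 methylation is a mark of active promoters. EMBOW is a microprotein that binds WDR5.

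The promoters of 9 genes show what sequence lies before ZNF genes that differ in their summits. Each line gives the 250 bases before the RefSeq start (GRCh38.p14), 5′ to 3′ on the strand of the gene, and capitals mark any match, on either strand, to the 9 motifs described further on. The first 3 genes were marked in both WDR5 lists at high rank.
ZNF326: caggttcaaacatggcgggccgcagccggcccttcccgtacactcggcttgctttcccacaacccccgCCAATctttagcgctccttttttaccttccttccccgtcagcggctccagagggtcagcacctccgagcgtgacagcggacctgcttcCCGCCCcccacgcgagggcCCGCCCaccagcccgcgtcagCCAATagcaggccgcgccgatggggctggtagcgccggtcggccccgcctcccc
ZNF783: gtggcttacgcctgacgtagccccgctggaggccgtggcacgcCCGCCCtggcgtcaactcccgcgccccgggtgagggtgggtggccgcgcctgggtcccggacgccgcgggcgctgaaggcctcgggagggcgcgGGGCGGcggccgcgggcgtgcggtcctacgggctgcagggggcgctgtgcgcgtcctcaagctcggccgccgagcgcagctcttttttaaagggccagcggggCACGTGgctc
ZNF84: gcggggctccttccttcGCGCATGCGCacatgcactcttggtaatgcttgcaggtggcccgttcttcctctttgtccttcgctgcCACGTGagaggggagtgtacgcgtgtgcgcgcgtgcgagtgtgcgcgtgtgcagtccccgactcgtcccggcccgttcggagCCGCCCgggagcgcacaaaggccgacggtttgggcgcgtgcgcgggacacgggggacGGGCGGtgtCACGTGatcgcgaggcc
ZNF713 and ZNF268 had a KO summit at a gene end and no WT summit within 5 kb of an end.
ZNF713: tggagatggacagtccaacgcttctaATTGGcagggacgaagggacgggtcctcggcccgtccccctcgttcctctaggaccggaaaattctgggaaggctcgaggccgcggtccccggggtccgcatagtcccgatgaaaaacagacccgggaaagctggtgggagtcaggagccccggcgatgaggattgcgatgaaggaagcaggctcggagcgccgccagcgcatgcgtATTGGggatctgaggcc
ZNF268: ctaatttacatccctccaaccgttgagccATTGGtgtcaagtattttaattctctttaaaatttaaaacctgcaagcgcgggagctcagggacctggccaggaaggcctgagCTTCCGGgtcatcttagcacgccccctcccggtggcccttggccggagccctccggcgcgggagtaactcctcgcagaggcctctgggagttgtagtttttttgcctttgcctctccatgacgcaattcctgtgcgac
ZNF25 and ZNF595 had a WT summit at a gene end and no KO summit within 5 kb of an end, and ZNF595 also had an EMBOW-F summit.
ZNF25: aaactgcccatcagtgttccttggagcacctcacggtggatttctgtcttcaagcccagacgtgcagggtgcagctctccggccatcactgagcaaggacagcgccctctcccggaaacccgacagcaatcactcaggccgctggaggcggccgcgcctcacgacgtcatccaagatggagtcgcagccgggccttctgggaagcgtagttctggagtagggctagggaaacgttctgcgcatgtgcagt
ZNF595: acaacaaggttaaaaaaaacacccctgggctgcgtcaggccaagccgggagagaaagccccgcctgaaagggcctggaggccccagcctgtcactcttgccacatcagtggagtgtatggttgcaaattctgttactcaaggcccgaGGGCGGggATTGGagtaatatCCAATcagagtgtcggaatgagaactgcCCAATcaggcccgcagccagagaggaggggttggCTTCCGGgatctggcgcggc
ZNF722 and ZNF679 had an EMBOW-F gene-end summit and no WDR5 summit. Their highest-ranked EMBOW-F summits lay at the 3′ end, 19650 and 38693 bp from the 5′ end whose window is printed. ZNF722 also had an EMBOW-F summit at the 5′ end, and ZNF679 did not.
ZNF722: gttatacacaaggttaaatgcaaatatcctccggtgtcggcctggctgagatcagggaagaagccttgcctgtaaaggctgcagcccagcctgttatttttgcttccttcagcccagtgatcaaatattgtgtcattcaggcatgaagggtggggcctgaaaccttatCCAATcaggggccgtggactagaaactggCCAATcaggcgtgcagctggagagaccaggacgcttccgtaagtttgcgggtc
ZNF679: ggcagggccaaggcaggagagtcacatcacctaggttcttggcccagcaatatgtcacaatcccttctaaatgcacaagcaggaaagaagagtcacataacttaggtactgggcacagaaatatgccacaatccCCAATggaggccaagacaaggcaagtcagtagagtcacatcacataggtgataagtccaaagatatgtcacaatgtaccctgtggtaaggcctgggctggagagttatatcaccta
These windows are chr1:89994860-89995109, chr7:149261946-149262195, chr12:133037259-133037508, chr7:55887206-55887455, chr12:133181245-133181494, chr10:37976648-37976897 (minus strand), chr4:53071-53320, chr7:63998599-63998848 and chr7:64228224-64228473, on the plus strand except for ZNF25. The dinucleotide CpG occurs 25, 36 and 35 times in the windows of ZNF326, ZNF783 and ZNF84. It occurs 22, 13, 17 and 10 times in those of ZNF713, ZNF268, ZNF25 and ZNF595, 7 times in that of ZNF722 and 0 times in that of ZNF679.

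WDR5 summits were called at most of these genes in both genotypes. In KO, 160 of 227 genes were marked, which is 70.5% (64.1 to 76.3%), and 53.4% of all protein-coding genes were. In WT, 153 were marked, which is 67.4% (60.9 to 73.5%), and 50% of all protein-coding genes were. Both lists marked 137 genes (60.4%, 53.7 to 66.8%, against 46.4% of all genes), and 51 genes were marked in neither (22.5%, 17.2 to 28.5%, against 43.1% of all genes). With a q of 1e-05 or less, 133 genes were marked in KO and 120 in WT, which is 58.6% and 52.9%, and 44.5% and 39.7% of all genes were. ZNF genes on chromosome 19, the densest array of the family, were marked in 103 of 240 cases in KO (42.9%, 36.6 to 49.4%) and 91 in WT (37.9%, 31.8 to 44.4%). No test of these differences was made, because genes are not replicates.

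Related zinc finger families, taken by symbol on any chromosome, are small. All protein-coding genes stood at 53.4% in KO and 50% in WT. ZBTB genes, which pair zinc fingers with a BTB domain, were marked in 28 of 36 cases in KO (77.8%, 60.8 to 89.9%). In WT 24 were (66.7%, 49.0 to 81.4%). ZSCAN genes, which carry a SCAN domain, were marked in 11 of 18 cases in KO (61.1%, 35.7 to 82.7%). In WT 7 were (38.9%, 17.3 to 64.3%). ZKSCAN genes were marked in 4 of 7 cases in each genotype (57.1%, 18.4 to 90.1%). Genes named ZFP and a number were marked in 9 of 18 cases in each genotype. None of these 4 families had an EMBOW-F gene-end summit. Of all protein-coding genes only 1.4% had one, so its absence in families this small says little.

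**Figure D1:**
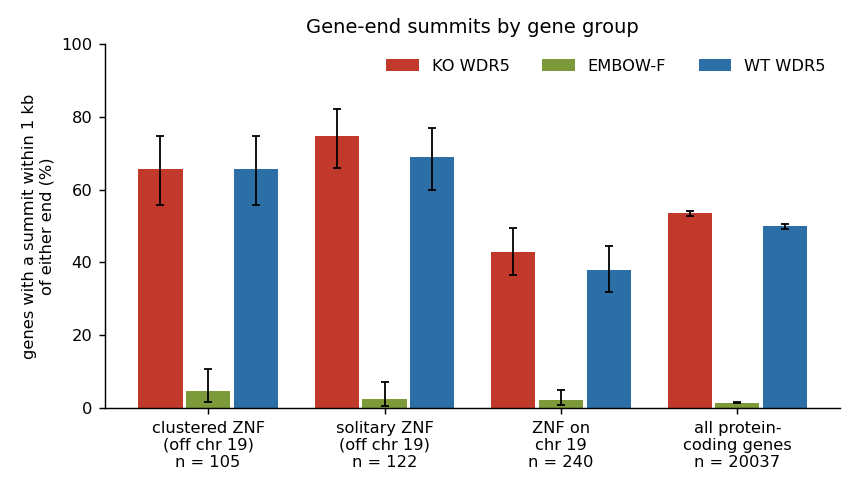
Share of genes with a summit within 1 kb of either end (y axis, percent) for clustered ZNF genes, solitary ZNF genes, ZNF genes on chromosome 19 and all protein-coding genes, in the KO WDR5, EMBOW-F and WT WDR5 lists. Bars give the share from 1 library each and error bars the exact 95% interval; the KO share is 65.7% in clustered, 74.6% in solitary and 42.9% in chromosome 19 genes.

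Over all these ZNF genes, with both ends taken, the shares of clustered and solitary genes differed by less than the counting error. In the 188 genes with a known strand, a set that left out some whole clusters, the KO shares differed by more. In KO, 69 of 105 clustered genes were marked (65.7%, 55.8 to 74.7%) and 91 of 122 solitary genes (74.6%, 65.9 to 82.0%), a difference of −8.88 percentage points (−21.3 to 3.62). In WT, 69 clustered genes were marked, the same share as in KO, and 84 solitary genes (68.9%, 59.8 to 76.9%), a difference of −3.14 points (−15.9 to 9.59). Both intervals include 0. Intervals of differences here treat each gene as independent, which neighbours in a cluster are not, so they can be too narrow. At the 5′ end alone, for the 188 genes with a known strand (54.2% of all such protein-coding genes were marked there in KO and 50.9% in WT), 54 of 88 clustered and 79 of 100 solitary genes were marked in KO, a difference of −17.6 points (−30.9 to −3.84). In WT these were 53 and 72 genes, a difference of −11.8 points (−25.7 to 2.48). With either end taken, the same 188 genes gave 54 and 79 in KO and 55 and 73 in WT. The larger differences thus went with the set of genes more than with the choice of end. Genes without a known strand had no matched promoter window and were unevenly spread. They included all 6 genes of a cluster on chromosome 8, and ZNF777, ZNF746, ZNF623 and ZNF707, all marked in both lists. Others, such as ZNF621, ZNF732, ZNF366 and ZNF704, were marked in neither. The 188 genes are therefore not a random part of the 227. A window of 500 bp gave −0.39 points in KO, and a q of 1e-05 or less gave 2.65 points in WT, with the sign turned.

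Where clustered genes were marked, their summits ranked somewhat higher than those of solitary genes. The highest −log10 q per marked gene had a median of 12.3 in KO and 11.5 in WT for clustered genes. For solitary genes it was 10.6 in KO and 8.03 in WT, and over all marked protein-coding genes 10.5 in KO and 9.39 in WT. Of the 69 clustered genes marked in KO, 17 (24.6%) held a summit in the top 10% of that list, and 14 of 91 solitary genes (15.4%) did. In WT these were 16 of 69 (23.2%) and 10 of 84 (11.9%). Neighbours that share a summit were each counted. The same share over all marked protein-coding genes is not given here, and the difference was not tested.

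The summits lay just inside the 5′ end. Strand was known for 133 genes marked in KO, and the highest-ranked summit was at the 5′ end in 132 of them (99.2%, 95.9 to 100%), against 96.3% of all protein-coding genes marked in KO. In WT this held for 125 of 128 genes (97.7%, 93.3 to 99.5%), against 96.5% of all marked genes. The median KO summit lay 196.5 bp inside the gene, and 105 of 132 lay inside. The median WT summit lay 210 bp inside, and 99 of 125 lay inside. Over all protein-coding genes the medians were 190 bp in KO and 191 bp in WT, so the position was near that of other genes.

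**Figure D2:**
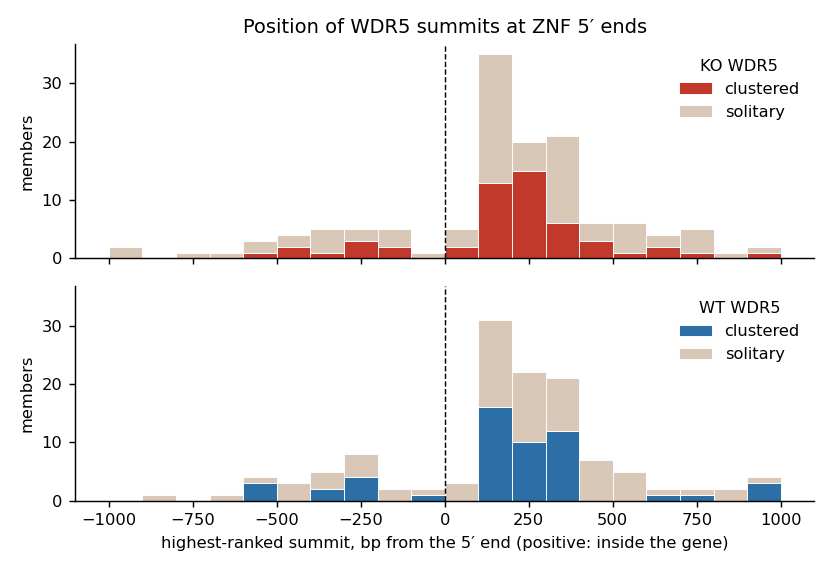
Number of ZNF genes (y axis) by distance of the highest-ranked summit from the 5′ end in bp (x axis, positive inside the gene, bins of 100 bp), KO above and WT below, with clustered genes in colour and solitary genes in beige stacked on them. In both lists most summits sit in the first 400 bp inside the gene, with 27 of 132 KO and 26 of 125 WT summits outside it.

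In most genes marked in both lists, the KO and WT summits lay within 500 bp of each other, though never at the very same base. Among the 137 genes marked in both lists, the highest-ranked KO and WT summits were a median of 67 bp apart, and 118 pairs (86.1%, 79.2 to 91.4%) were within 500 bp, against 86.3% of all protein-coding genes marked in both. Clustered genes had 50 of 61 pairs within 500 bp and solitary genes 68 of 76. The largest distance, 23718 bp at ZNF197 on chromosome 3, arose because the highest-ranked KO summit lay at the 3′ end. ZNF197 also had a KO summit 170 bp from its other end, and the WT summit lay 165 bp from that 5′ end.

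The 8 genes with the highest mean rank in both lists were ZNF326, ZNF783, ZNF24, ZNF84, ZNF646, ZNF668, ZNF384 and ZNF239. ZNF326 encodes a subunit of the DBIRD complex, which acts on splicing during transcription. Its KO summit at 89995279 on chromosome 1 ranked 112 (−log10 q 181), and its WT summit at 89995262 ranked 105 (−log10 q 173). At ZNF783 on chromosome 7 the KO summit at 149262405 ranked 198 (−log10 q 66.4) and the WT summit, 10 bp away, ranked 184 (61.4). ZNF24 on chromosome 18 had KO rank 214 and WT rank 170, with summits 33 bp apart. ZNF84 on chromosome 12 had KO rank 176 and WT rank 209, with summits 57 bp apart. ZNF384 on chromosome 12, a gene known for its fusions in acute lymphoblastic leukaemia, had KO rank 372 and WT rank 819, with summits 3 bp apart. ZNF239 on chromosome 10 had KO rank 538 and WT rank 699. ZNF646 and ZNF668 on chromosome 16 overlap at their 5′ ends and shared 1 summit in each list (KO rank 265 at 31073616, WT rank 321 at 31073600). All 8 genes were thus marked by summits between 3 and 57 bp apart, and 6 of the 8 were clustered. Ranks come from lists of different lengths and do not measure a difference between genotypes.

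Shared summits were few. In each list 3 pairs of neighbours shared their highest-ranked summit: ZNF668 with ZNF646, ZNF891 with ZNF10 on chromosome 12, and ZNF425 with ZNF398 on chromosome 7. ZNF10, also known as KOX1, is the gene whose KRAB domain is widely used as a repressor module. Its shared KO summit ranked 7266 (−log10 q 9.33) and its shared WT summit, 67 bp away, ranked 16568 (2.16). The 69 marked clustered genes therefore carried 66 distinct summits in each list. Another protein-coding gene of any kind had an end within 1 kb in 44 of the 227 genes, against 28.5% of all protein-coding genes. Of these 44, 36 were marked in KO (81.8%, 67.3 to 91.8%) and 37 in WT (84.1%, 69.9 to 93.4%), where all such protein-coding genes stood at 71.2% in KO and 67.4% in WT. Of the 183 genes with no such neighbour, 124 were marked in KO (67.8%, 60.5 to 74.5%) and 116 in WT (63.4%, 56.0 to 70.4%), where all such protein-coding genes stood at 46.4% in KO and 43.0% in WT. Without shared ends the clustered share in KO was 63.1% and the solitary share 71.7%.

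Most clusters are small, so a cluster marked throughout or not at all is a description of few genes. Of the 32 clusters, 9 were marked at every gene in both genotypes and 4, holding 9 genes, were marked at none. The 6 clusters of 6 or 7 genes were marked at 32 of 38 genes in KO and 30 in WT. All clusters together were marked at 69 of 105 genes in each list, and 53.4% of all protein-coding genes were marked in KO and 50% in WT. KO and WT counts were equal in 23 clusters, higher in KO in 4 and higher in WT in 5.

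The cluster at the end of chromosome 12 (132918306 to 133214832) was marked at all 7 genes in KO and at 6 in WT. Its genes were ZNF605, ZNF26, ZNF84, ZNF140, ZNF891, ZNF10 and ZNF268, and ZNF84 held the highest −log10 q in KO (78.7) and in WT (55.8). ZNF268 at the distal end was the gene without a WT gene-end summit, and it held a WT summit inside the gene, 13553 bp from an end. On chromosome 7 (149069641 to 149284994) all 6 genes, ZNF786, ZNF425, ZNF398, ZNF282, ZNF212 and ZNF783, were marked in both genotypes. A cluster of 6 genes on chromosome 8 was marked throughout in both genotypes as well.

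The cluster of 7 on chromosome 3 (44431705 to 44737083) was the least marked of the large ones, with 4 genes in KO and 2 in WT. ZNF445, which acts with ZFP57 in keeping genomic imprints, was marked in both (KO rank 1280, WT rank 2390), and so was ZNF197 (KO rank 1670, WT rank 849). ZNF852 and ZNF501 were marked in KO alone, and ZNF660, ZNF35 and ZNF502 in neither. The 2 clusters of 6 on chromosome 16 each had 1 gene or more marked in a single genotype. In the first (3112586 to 3443504), ZNF213, ZNF263, ZNF174 and ZNF597 were marked in both, ZNF205 in KO and ZNF200 in WT. In the second (30524004 to 30610775), ZNF768, ZNF747, ZNF764 and ZNF689 were marked in both (ZNF768 at the 5′ end in KO and at the 3′ end in WT), ZNF688 in WT and ZNF785 in neither.

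**Figure D3:**
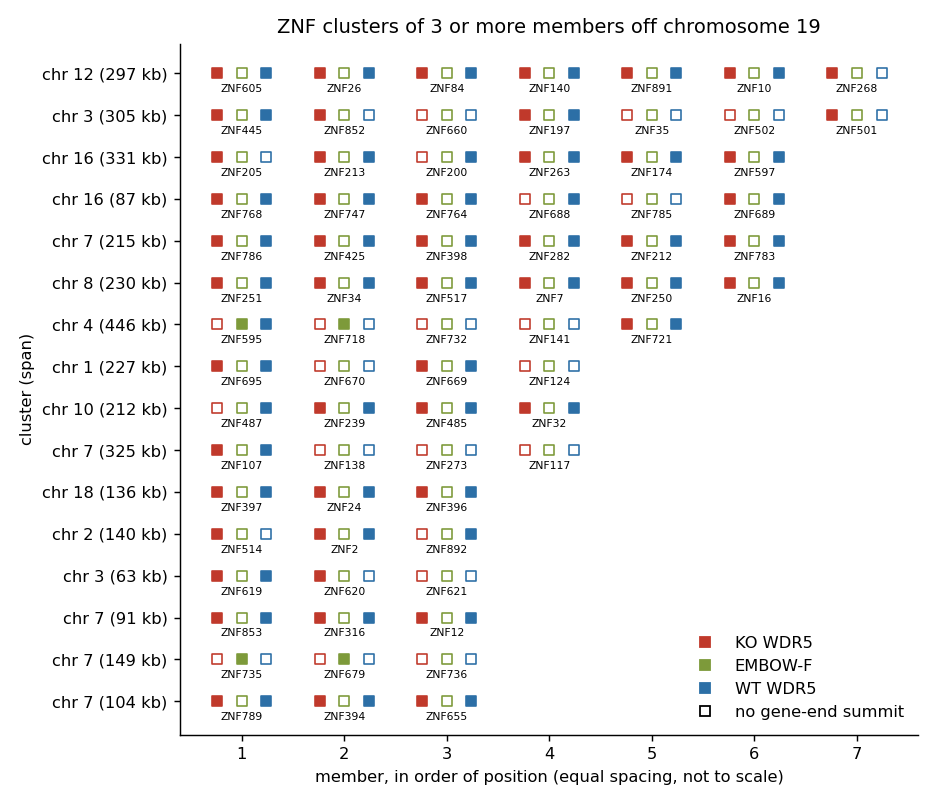
The 16 clusters of 3 or more ZNF genes, 1 per row with chromosome and span, and their genes in order of position (x axis, equal spacing and not to scale). Filled squares show a gene-end summit in the KO WDR5, EMBOW-F or WT WDR5 list and open squares none; clusters such as that of 7 genes on chromosome 12 are filled almost throughout in both WDR5 lists, and the 149 kb cluster on chromosome 7 has 2 EMBOW-F genes and no WDR5 gene.

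Single-genotype marks were found in both directions. In KO and not in WT, 23 genes were marked (10.1%, 6.53 to 14.8%, against 6.99% of all genes), and in WT and not in KO 16 (7.05%, 4.08 to 11.2%, against 3.51% of all genes). Clustered genes had 8 in each direction. Solitary genes had 15 with a KO mark alone and 8 with a WT mark alone, and whether this differs from the clustered split was not tested. With both WDR5 lists taken at the same length, 20 genes had a KO mark alone and 16 a WT mark alone. The equal-length counts over all protein-coding genes are not given here. The summits at such genes ranked low. The median −log10 q was 4.76 for the 23 KO genes and 4.23 for the 16 WT genes, and among genes marked in both it was 12.5 in KO and 10.4 in WT. The same medians over all protein-coding genes are not given here, so low rank is not shown to be particular to ZNF genes. In 8 of the 23 genes a WT summit lay within 5 kb of an end, and in 4 of the 16 a KO summit did. Of all protein-coding genes, 1400 had a KO mark alone, and 1019 of these had no WT summit within 5 kb. A WT mark alone was found at 704, and 420 of these had no KO summit within 5 kb.

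Of the 23, 15 had no WT summit within 5 kb of an end (5.09% of all genes met that rule), and ZNF852 led them. ZNF852 on chromosome 3 had its KO summit at 44510509 (rank 2747, −log10 q 17.6), 108 bp from the gene end, and the nearest WT summit was 14261 bp away. ZNF362 on chromosome 1 followed (KO rank 7461, −log10 q 9.06), with a WT summit inside the gene, 48680 bp from an end. ZNF438 on chromosome 10 had a −log10 q of 7.85 and its nearest WT summit 59653 bp away. ZNF713 on chromosome 7 had a −log10 q of 6.95 and its nearest WT summit 9936 bp away. ZNF268, with the WT summit inside the gene, had a −log10 q of 6.69. ZNF106 on chromosome 15, ZNF219 on chromosome 14 and ZNF322 on chromosome 6 had a −log10 q of 6.39, 5.09 and 4.99. ZNF852 thus had a KO rank well ahead of the next gene of this kind. On chromosome 17 the neighbours ZNF287 and ZNF624 each had a KO summit and no WT summit.

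The converse set, a WT mark and no KO summit within 5 kb of an end, held 12 genes (2.1% of all genes met that rule). ZNF25 on chromosome 10 led it, with a WT summit at 37976285 (rank 3439, −log10 q 13.4) and the nearest KO summit 91690 bp away. ZNF200 on chromosome 16 (−log10 q 8.20), ZNF595 on chromosome 4 (7.82), ZNF92 on chromosome 7 (7.08) and ZNF692 on chromosome 1 (6.76) followed, and then ZNF487 and ZNF488 on chromosome 10 (5.59 and 4.97, with a KO summit deeper inside ZNF487) and ZNF142 on chromosome 2 (3.48). The nearest KO summit to ZNF692 was 1517758 bp away. ZNF672, its neighbour in a cluster of 2 genes, likewise had a WT summit and no KO summit. The nearest KO summit to ZNF672 was 1505974 bp away. The 2 genes are 490 bp apart in 1 stretch without KO summits, so they are not separate cases.

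Genes near the limits of the rule show how it divides them. For KO summits ZNF646 (929 bp) and ZNF827 (919 bp) lay just inside 1 kb, and ZNF423 (1112 bp) and ZNF436 (1118 bp) just outside. For WT summits ZNF892 (936 bp) and ZNF689 (923 bp) lay just inside, and ZNF3 (1054 bp) and ZNF609 (1220 bp) just outside. ZNF25 and ZNF248, 91469 bp apart, were the widest clustered pair, and ZNF680 (103061 bp from the nearest other ZNF gene) and ZNF496 (125035 bp) were the closest solitary genes.

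Tagged EMBOW was called at few of these genes. An EMBOW-F gene-end summit was found at 8 of 227 genes (3.52%, 1.53 to 6.83%), and at 1.4% of all protein-coding genes. Clustered genes held 5 of them (4.76%, 1.56 to 10.8%) and solitary genes 3 (2.46%, 0.51 to 7.02%). They lay in few places, with ZNF679, ZNF479, ZNF722, ZNF716 and ZNF735 on chromosome 7 between 57117177 and 64267167, ZNF595 and ZNF718 as neighbours on chromosome 4, and ZNF80 on chromosome 3. ZNF679 had the highest −log10 q among them (5.17, rank 11106) and ZNF80 the lowest (1.42, rank 91782). Strand was known for 7 of the 8, and the highest-ranked summit lay at the 3′ end in 5 and at the 5′ end in 2 (ZNF595 and ZNF718). Counting any summit, 5 of the 188 genes with a strand (2.66%) had one at the 5′ end, which were ZNF595, ZNF718, ZNF716, ZNF722 and ZNF735, and 0.972% of all genes with a strand did. With a q of 1e-05 or less 1 gene, ZNF679, was left, and 0.19% of all genes passed.

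None of the 8 genes was marked by WDR5 in KO, and 2 were marked in WT. At ZNF595 the EMBOW-F summit (53658) lay 34 bp from the WT summit (53624), 337 bp inside the 5′ end. At ZNF479 the EMBOW-F summit (57117177) lay 54 bp from the WT summit (57117231), both beyond the 3′ end, and that WT summit was weak (−log10 q 3.44). ZNF595 held a KO summit inside the gene, 7962 bp from an end, and the KO summit nearest to ZNF479 lay 728605 bp away.

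EMBOW-F summits inside gene bodies were found in a few more of these genes. One or more lay inside 14 of the 227 genes (6.17%, 3.41 to 10.1%), against 5.15% of all protein-coding genes. These held 83 summits, of which 60 were in 9 clustered genes and 23 in 5 solitary ones. ZNF718 held 13, ZNF679 held 10, and ZNF717, ZNF722 and ZNF727 held 9 each. These counts come from genes of different length. Leaving out the 3 clusters with an EMBOW-F gene-end summit (10 genes, chosen after seeing the data) left a clustered share of 71.6% in KO.

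Promoter windows of 300 bases (250 before to 50 after the start) from RefSeq were matched to 188 of the 227 genes and to 15842 of all protein-coding genes. Marked genes had more CpG. The median was 26 CpG in the 133 genes marked in KO and 15 in the 55 genes not marked in KO, and over all protein-coding genes 28 and 8. By WT marks the medians were 26 and 16.5. Genes marked in both genotypes had a median of 27.5, those marked in KO and not WT 24, those marked in WT and not KO 19.5, and those marked in neither 15. Clustered and solitary genes were close in CpG, with medians of 23 and 24.

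Among genes with fewer than 20 CpG, clustered and solitary genes differed in how many were marked. In KO, 9 of 33 such clustered genes were marked (27.3%, 13.3 to 45.5%) and 17 of 30 such solitary genes (56.7%, 37.4 to 74.5%). In WT these were 9 of 33 clustered (27.3%) and 18 of 30 solitary genes (60%, 40.6 to 77.3%). Of all protein-coding genes with fewer than 20 CpG, 27% were marked in KO and 24.9% in WT. These groups differ in CpG below 20, so their shares are not like for like. Among the ZNF genes 44 had 10 to 19 CpG and 12 had 0 to 4, against 2696 and 2631 of all genes. Of all genes, 50.7% with 10 to 19 CpG and 8.02% with 0 to 4 were marked in KO. With 20 CpG or more, 45 of 55 clustered genes (81.8%, 69.1 to 90.9%) and 62 of 70 solitary genes (88.6%, 78.7 to 94.9%) were marked in KO, and 46 (83.6%) and 55 (78.6%) in WT. Over all protein-coding genes these shares were 77.8% in KO and 73.4% in WT. The split at 20 CpG was chosen after the data were seen, and these differences were not tested. Clusters with low counts of WDR5 marks included ones with few CpG. The median was 9 in the 149 kb cluster of ZNF735, ZNF679 and ZNF736 on chromosome 7, where no gene was marked, and 31 in the cluster of 6 on the same chromosome, where every gene was.

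**Figure D4:**
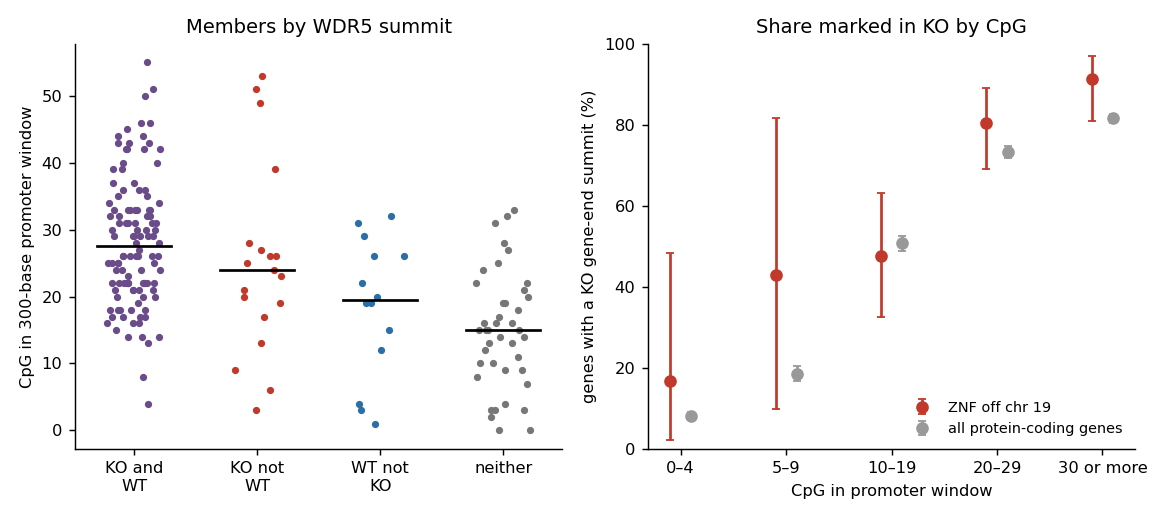
Left, CpG count in the 300-base promoter window (y axis) of each of 188 ZNF genes by where WDR5 marked them, with the median as a line. Right, share of genes with a KO gene-end summit (y axis, percent) by CpG count (x axis) for ZNF genes off chromosome 19 and for all protein-coding genes, with exact 95% intervals; the ZNF share was 16.7% with 0 to 4 CpG and 91.4% with 30 or more, against 8.02% and 81.6% in all genes.

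A set of 9 short motifs was searched on both strands of these windows. They were the ETS core CCGGAAG, the GC box GGGCGG, the CCAAT box, the E-box CACGTG, the TATA box TATAAA, the YY1 motif AAGATGGCG, and, searched as exact strings of 10 or 11 letters and given here by name, the NRF1 motif, the CGCG palindrome bound by BANP, and a part of the ZNF143 motif. Matches to 2 motifs overlapped in 1 promoter for the CCAAT box with the GC box and in 1 for the GC box with the NRF1 motif, and in none for other pairs. CCGGAAG was found in 37.8% of the 188 promoters (30.8 to 45.1%, 71 genes) and in 14.2% of all 15842. ZNF genes on chromosome 19 had it in 44.3% (37.5 to 51.3%). Clustered genes had it in 38.6% and solitary genes in 37.0%.

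By WDR5 mark, the share with CCGGAAG depended on the strand searched. On both strands it was in 39.1% (30.8 to 47.9%) of promoters marked in KO and 34.5% (22.2 to 48.6%) of those not marked, while over all protein-coding genes these shares were 20.6% and 6.35%. On the strand of the gene alone it was in 21.8% of ZNF promoters marked in KO (29 of 133) and 5.45% of those not marked (3 of 55), and over all protein-coding genes in 12% and 3.10%. GGGCGG was in 69.9% (61.4 to 77.6%) of promoters marked in KO and 36.4% (23.8 to 50.4%) of those not marked. Over all protein-coding genes these shares were 74.6% and 38.5%, and 58.5% of all promoters held it. CCAAT was in 44.7% of the 188 promoters (36.4% of all), with 44.4% of those marked in KO and 45.5% of those not marked. CACGTG was in 6.38% (8.88% of all), TATAAA in 4.26% (9.63% of all), the NRF1 motif in 3.19% (1.75% of all), AAGATGGCG in 2.66% (2.74% of all) and the ZNF143 motif in 1.60% (0.372% of all). The BANP motif was in none of the 188 (0 to 1.94%), and in 0.669% of all. In the sequences above, ZNF84 has a GC box, an E-box and the NRF1 motif before its start, ZNF595 has a CCAAT box, a GC box and the ETS core, and ZNF679 has a CCAAT box alone. A match is a description of the letters and not of binding.

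The proteins that KRAB zinc finger proteins work with were looked at as a list of 20 genes, of which 16 were marked in KO and 16 in WT (80.0%, 56.3 to 94.3%, in each), against 53.4% of all protein-coding genes in KO and 50% in WT. TRIM28, the corepressor itself, was marked in both (KO rank 3787, WT rank 3592), and so were SETDB1 (KO rank 13635, WT rank 10113), CBX1, CBX3 and CBX5, which encode heterochromatin protein 1, and the HUSH complex gene TASOR (KO rank 139, WT rank 124). MPHOSPH8, another HUSH subunit, was marked in KO (rank 12340, −log10 q 5.22), with the nearest WT summit 31433 bp from an end. ATRX, a chromatin remodeller that works with DAXX, was marked in WT (rank 8772, −log10 q 6.53), with the nearest KO summit 114136 bp from an end. ATF7IP, SUV39H1 and UHRF1 were marked in neither, though UHRF1 held summits of both genotypes inside the gene and SUV39H1 had a KO summit at 1286 bp and a WT summit at 1369 bp from an end. None of the 20 had an EMBOW-F gene-end summit (0 to 16.8%), against 1.4% of all genes.

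The authors' deposited table of new WDR5 targets dependent on EMBOW lists transcripts. A listed transcript started within 1 kb of an end of 25 of the 227 genes (11.0%, 7.26 to 15.8%), and of 10.3% of all protein-coding genes. Clustered genes held 12 of them and solitary genes 13. Of the 23 genes marked in KO and not WT, 12 were listed (52.2%, 30.6 to 73.2%), among them ZNF852, ZNF438, ZNF219, ZNF106, ZNF322, ZNF287 and ZNF624, while 74.3% of all such protein-coding genes were listed. None of the 16 genes marked in WT and not KO was listed (0 to 20.6%), against 1.85% of all such genes. Of the 137 genes marked in both, 9 were listed (6.57%, against 6.63% of all such genes), among them ZNF326. Of the 51 marked in neither, 4 were (7.84%, against 4.56% of all such genes), among them ZNF718. The authors chose the list on these samples, so it is not independent of the summits.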

How the data were processed

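ChIP-seq peak summits of WDR5 in KO and WT HEK293T cells and of tagged EMBOW were used. Per the submitters' processing notes, the genome build was hg38 and the tools were MACS2 2.2.7.1, Bowtie2 2.4.5 and deepTools 3.5.1, none with a role or setting. Control library and pooling are not given in the sources used here. All deposited −log10 values are the authors' scores per summit, read as −log10 q because the lowest lie just above that of a q of 0.05. They were used to rank and filter within a list. The EMBOW-F list belongs to the whole series and was matched to the anti-FLAG sample. In the deposited transcript list, whose coordinates are the authors' values of another kind (start and end), 1 line with a damaged chromosome name was repaired. The libraries of H3K4me3 and the inputs were not analysed here.

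Gene positions and promoters came from RefSeq (GRCh38.p14). Summits were compared with gene ends (1 kb) and ZNF genes grouped by a gap of 100 kb, in Python 3.11.15 (scipy 1.17.1, pandas 2.3.3, numpy 2.4.6, with matplotlib 3.10.9 for figures). Strand came from the promoter table. Summits planted at 40 ZNF genes in simulated data were all recovered, with 0 mismatches against a direct search. Genes were named by rule: the 8 highest by mean rank, the 8 highest KO and 8 highest WT summits with none of the other genotype within 5 kb, those with EMBOW-F summits, the members of 5 large clusters, genes next to the limits, and silencing partners that differ. Other names were chosen after their values were seen. The genes, lists and motifs were chosen with earlier results of these data known. Zinc fingers per protein were not analysed here. Alternatives changed the window, the q, list length, gene end, gap, shared ends and promoter strand. One library per group gives no replicate error, and depth is unknown.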

Additional observations from a re-analysis of the deposited data

How the results depend on the processing

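Of 200 recomputed values, 176 stayed within the interval or 1.5 times of the value reported, 22 moved beyond it and 2 changed sign. In a window of 500 bp, 62.1% of ZNF genes were marked in KO (62.3% of solitary ones) and 59.9% in WT, and 15 solitary genes had a WT mark alone. In a window of 5 kb, the WT share was 74.4% (77.0% of solitary genes). With a −log10 q of at least 5, KO shares were 58.6% of all ZNF genes and 60.7% of solitary ones. WT shares were then 52.9%, with 54.3% of clustered and 51.6% of solitary genes, so that the clustered minus solitary difference in WT turned to 2.65 points. EMBOW-F shares at that q were 0.441%, with 0.952% of clustered and 0% of solitary genes. At the 5′ end alone, 5 solitary genes had a WT mark alone. Asking for no WT summit within 5 kb left 15 genes with a KO mark alone, 9 of them solitary. Without the 3 clusters holding EMBOW-F summits, chosen after seeing the data, the clustered EMBOW-F share was 0% and the WT difference turned to 1.67 points. The cause of these changes was not tested. Over 13 alternatives the clustered minus solitary difference ran from −17.6 to −0.39 points in KO and from −11.8 to 2.65 in WT. On the strand of the gene alone, the share of promoters with CCAAT was 30.9%, with GGGCGG 44.1%, with CCGGAAG 17.0% and with TATAAA 1.60%. The planned count of zinc fingers per protein was not run. No paired analysis was possible because each group has 1 library. Depth is unknown, so a missing summit does not show absence of WDR5.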
